A study of Mus musculus with 2 samples.

Results

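The cytosolic ribosomal protein genes were followed in mouse embryonic stem cells after knockdown of Son, a nuclear speckle protein that takes part in pre-mRNA splicing. Members were chosen by gene symbol: Rpl or Rps with a number and an optional a, x or y, together with Rpsa, Rplp0, Rplp1 and Rplp2. This gave 76 of the 32285 genes listed, of which 46 belong to the large subunit and 30 to the small subunit. Pseudogenes and paralogs whose symbols end in l were not members. All 76 had a mean of at least 10 CPM, counts per 1000000 UMIs of the library, in cells and in droplets, so no member was lost to the filter on low values.

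The study held 2 libraries of single-cell RNA from E14 cells, an embryonic stem cell line of 129/Ola background, grown in serum with leukaemia inhibitory factor. One library came from cells given a control siRNA and the other from cells given siRNA against Son (sonKD), both delivered with Lipofectamine 2000. In both, cells were harvested 24 hours after transfection, frozen, thawed, sorted on 7-AAD as viable cells and barcoded with 10x 3′ v3 chemistry. With 1 library per group there was no replicate and no test. Every interval below is an exact 95% interval that covers counting error alone, and a difference between the libraries cannot be told apart from a difference between 2 cultures, freezings or barcoding runs.

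Counts were of unique molecular identifiers (UMIs), 1 for each captured molecule, read at its 3′ end, so a level in CPM does not scale with transcript length. A barcode was taken as a cell from 2500 UMIs and 1000 detected genes upwards, unless over 10% of its UMIs were mitochondrial. There were 4978 in control, with a median of 7738 UMIs and 40902904 in all, and 2731 in sonKD, with a median of 11612 UMIs and 32032551 in all. Droplets were barcodes of 100 to 500 UMIs, which in such assays hold mostly free RNA. They numbered 59886 in control, with a median of 305 UMIs, and 62449 in sonKD, with a median of 296. The libraries had 2 cell barcodes and 1075 droplet barcodes in common (1.80% of those of control and 1.72% of those of sonKD). Son itself was at 169 CPM in control cells (165 to 173) and at 106 CPM in sonKD cells (102 to 109), a log2 ratio of -0.67 (-0.73 to -0.61), which is the direction the labels give. The 9 stem cell markers were all above 10 CPM, whereas the 6 fibroblast, 5 primitive endoderm, 4 mesoderm and 3 blood markers each summed to between 0 and 4.52 CPM and the 3 neuroectoderm markers to 11.6 and 11.8 CPM.

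A ribosome is built from ribosomal RNA and a set of ribosomal proteins, put together largely in the nucleolus and finished in the cytoplasm. The small subunit reads the mRNA and the large subunit forms the peptide bond. Most of the proteins are needed in equal amounts. Their mRNAs are abundant and are translated together through a pyrimidine-rich 5′ end, the terminal oligopyrimidine (TOP) tract. It starts with a C and makes the translation of these mRNAs responsive to growth signals. The genes are short, carry many processed pseudogenes and are among the most highly expressed in embryonic stem cells.

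The TOP tract is shown first because it is the sequence feature by which this family is known. RefSeq promoters (GRCm38.p6) matched 56 of the 76 members. Of these, 13 (23.2%) had a C at the annotated start followed by at least 4 more C or T, against 3.10% of 6415 other genes at 10 CPM. Shown are 6 of them whose log2 ratios of sonKD over control in cells ran from 1.78 to -0.09. Each line gives 10 bases before the start and 20 from it, 5′ to 3′ on the transcribed strand, with the pyrimidine run in capitals.
Rps27, chr3:90213629-90213658, minus strand: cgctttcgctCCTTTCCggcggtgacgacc
Rpl35, chr2:39005112-39005141, minus strand: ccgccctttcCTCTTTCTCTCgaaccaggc
Rplp2, chr7:141447641-141447670, plus strand: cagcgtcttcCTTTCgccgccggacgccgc
Rpl35a, chr16:33056472-33056501, plus strand: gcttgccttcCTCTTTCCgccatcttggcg
Rpl15, chr14:18270967-18270996, minus strand: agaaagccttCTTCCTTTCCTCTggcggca
Rps6, chr4:86857348-86857377, minus strand: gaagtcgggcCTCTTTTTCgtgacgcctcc

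The 13 members with such a start had a median log2 ratio of 0.41, and the 43 matched members without it had 0.35. The letters CTTTCC or CTTTTC, searched in the 100 bases around the start, stood on the transcribed strand of 26 of the 56 (46.4%) and of 8.22% of the other genes. On the opposite strand they stood in 3 of the 56 (5.36%) and in 7.44% of the others. The 2 hexamers can overlap a TOP tract. An annotated start may lie some bases from the true one, so a promoter without the tract says only that these letters were not at the annotated base. A log2 ratio of 0.25 or more was found in 11 of the 13 members with the tract and in 25 of the 43 without it, against 46 of all 76 members and 5.07% of the 8063 genes at 10 CPM.

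A second set of sequences bears on how far a count belongs to 1 gene. In Rps27, which encodes a small-subunit protein with a zinc finger, the last 60 coding bases are given beside those of its paralog Rps27l, with the bases that differ in capitals.
Rps27, coding bases 196 to 255: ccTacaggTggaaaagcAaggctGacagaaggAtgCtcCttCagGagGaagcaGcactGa
Rps27l, coding bases 196 to 255: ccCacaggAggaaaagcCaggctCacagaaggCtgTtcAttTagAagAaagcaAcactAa
Rps27rt, coding bases 196 to 255: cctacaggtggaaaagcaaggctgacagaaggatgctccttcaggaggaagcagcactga

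Rps27 (chr3:90212522-90213651) and Rps27l (chr9:66946086-66949516) had 76.1% of 255 coding bases in common and 12 differences in the stretch shown. Rps27rt (chr9:114982366-114982739) is identical to Rps27 over all 255. A read from the coding sequence can therefore be told apart from Rps27l but not from Rps27rt. The same held for Rpl10 and Rpl10-ps3, identical over 645 bases, and nearly so for Rpl9 and Rpl9-ps6, with 1 difference in 579 bases. These coordinates and those below are from GENCODE M21 on GRCm38.

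The shortest member, Rpl41, encodes a peptide of 25 residues, and its whole coding sequence of 78 bases (gene at chr10:128548114-128549305, minus strand) is printed because ratios are read against coding length further on.
Rpl41: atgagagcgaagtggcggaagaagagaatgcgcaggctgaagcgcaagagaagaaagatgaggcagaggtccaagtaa

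Summed over the 76 genes, ribosomal protein mRNAs took 20.2% of the UMIs in control cells and 23.4% in sonKD cells, a log2 ratio of 0.22. The large subunit took 11.7% and 13.4%, a log2 ratio of 0.19, and the small subunit 8.41% and 10.0%, a log2 ratio of 0.26. Counting error on these ratios was below 0.01 on the log2 scale. The difference was spread over the cells: the median share per cell was 20.5% in control, with the 5th and 95th percentiles at 15.2% and 25.6%, and 23.8% in sonKD, with 17.2% and 28.8%. The distributions overlapped widely. With every cell thinned to 2500 UMIs, the medians were 20.4% and 23.8%. In the thinned cells the UMIs of the 2 subunits varied together from cell to cell, with a Spearman rho of 0.81 over 4978 control cells and 0.78 over 2731 sonKD cells. The points share a library and a fixed total, and this is a description.

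Gene by gene, 46 of the 76 members (27 of the large and 19 of the small subunit) had a log2 ratio of 0.25 or more. Of the 8063 genes at 10 CPM, 5.07% did. Among other genes of up to 300 coding bases 43.5% did, and shares by coding length are given further on. Only 3 members, Rpl21, Rpl10 and Rpl13a, all of the large subunit, were at -0.25 or less, against 20.1% of all genes. At 0.5 or more there were 20 members, against 1.49% of all genes. Above 0 there were 62 members, against 25.1% of all genes. Factors from the trimmed mean of M-values (TMM) add 0.09 to every log2 ratio in cells, and a total without mitochondrial and member genes adds 0.07. With TMM factors 68 members were above 0, against 43.4% of all genes, 8.53% of which were then at 0.25 or more and 8.40% at -0.25 or less. The median member was at 0.35 and the median gene at -0.12. The distance between them was 0.47. It stayed so with either of these scalings by construction, since each moves every gene alike and only the genes past the filter can differ. By counting error alone, the interval lay above 0 for 61 members, below 0 for 12 and across 0 for 3.

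**Figure D1:**
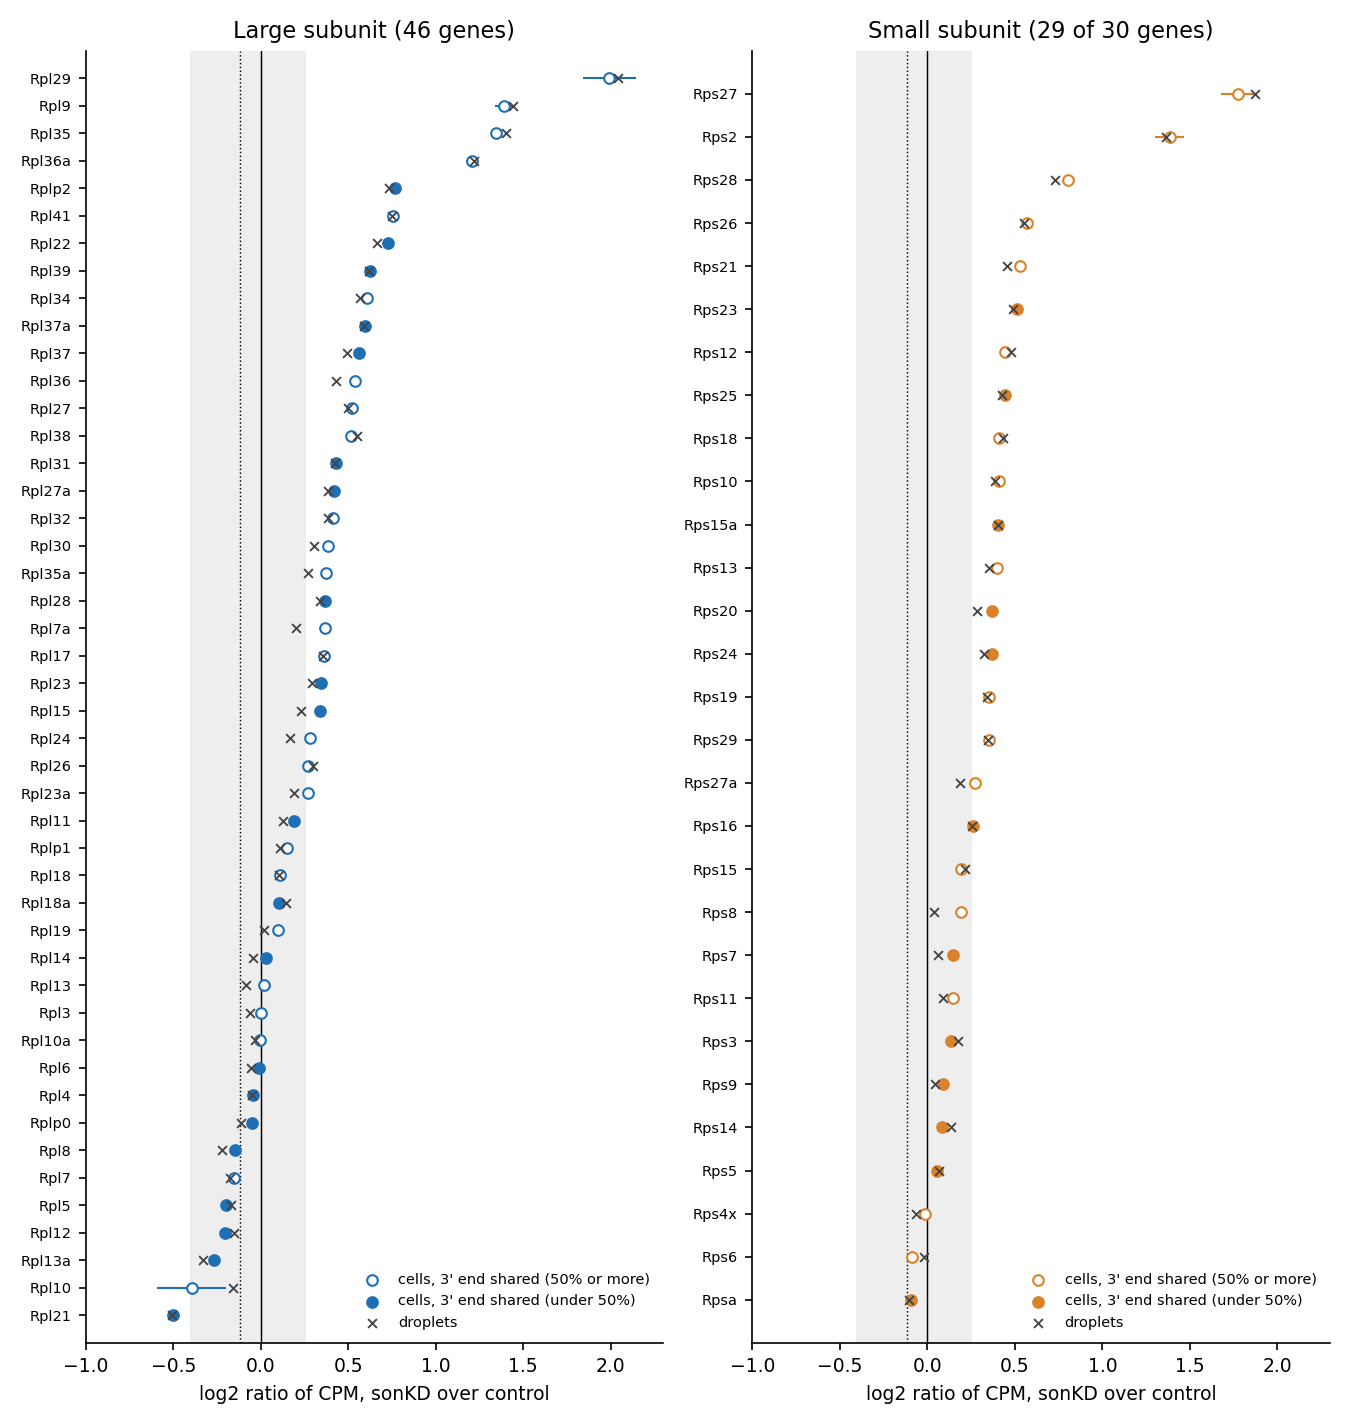
The log2 ratio of CPM, sonKD over control, for the members in cells, with 1 small-subunit gene left out (circles, with 95% counting intervals as lines) and in droplets (crosses); open circles are members whose 3′ end is shared to 50% or more with other annotated genes. The grey band spans the 5th to the 95th percentile of all genes at 10 CPM (-0.40 to 0.25), the dotted line is their median, and 46 of all 76 members are at 0.25 or more.

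A group of 6 genes stood apart from the rest, each with a log2 ratio above 1. Rpl29, a basic protein on the surface of the large subunit, was at 11.6 CPM in control cells (10.6 to 12.7) and 46.2 CPM in sonKD cells (43.9 to 48.6), a log2 ratio of 1.99 (1.84 to 2.14). Rps27 was at 26.5 and 90.7 CPM, a log2 ratio of 1.78 (1.68 to 1.88). These were the highest ratios of the family and also among its lowest levels. Rpl9, which lies near the factor-binding region of the large subunit, was at 123 and 321 CPM, a log2 ratio of 1.39 (1.34 to 1.44). Rps2, which lines the mRNA entry site, was at 41.9 and 109 CPM, a log2 ratio of 1.38 (1.30 to 1.47). Of the 5 members with the lowest mean level, 4 thus had a ratio above 1, and the fifth, Rpl10, was lower in sonKD. Rpl35, at the rim of the exit tunnel, was at 362 and 920 CPM (1.35; 1.32 to 1.38). Rpl36a, an X-linked gene whose protein lies by the tRNA exit site, was at 347 and 800 CPM (1.21; 1.18 to 1.24).

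In all 6, at least 83.3% of the 31-base words in the last 300 bases of the transcript also occurred in transcripts of other annotated genes. Summing a gene with the copies that the count table lists separately lowered its ratio but left it above 1. Rps27 with Rps27rt was at 1.52 (1.44 to 1.61), Rpl9 with Rpl9-ps6 at 1.17 (1.12 to 1.21) and Rpl29 with Gm3550 at 1.73 (1.59 to 1.87). By themselves Rps27rt was at 0.68 and Rpl9-ps6 at -0.05, with an interval across 0 (-0.16 to 0.07). Rpl35 with Gm2000 was at 1.25 and Rpl36a with 2 copies at 1.18. No copy of Rps2 is listed in the count table, whereas 18 annotated genes share at least 50% of its 3′ end. Reads that match several genes may be discarded or assigned by the counting, so the levels of these 6 genes are uncertain, and the part of that assignment in their ratios was not tested. Together the 6 held 0.0911% of control and 0.229% of sonKD UMIs, and without them the other 70 members had a summed log2 ratio of 0.21.

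Over the whole family, 43 members had a 3′ end shared to 50% or more, against 2.88% of all genes at 10 CPM. The 33 members under that limit had a median log2 ratio of 0.19 and the 43 others 0.37. Among the 33 the highest ratios were those of Rplp2, Rpl22, Rpl39 and Rpl37a, and their summed log2 ratio was 0.18. The 18 members with nothing shared had a median of 0.35, with long annotated 3′ untranslated regions of 283 to 4728 bases. Transcripts that end earlier than annotated were not assessed.

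**Figure D2:**
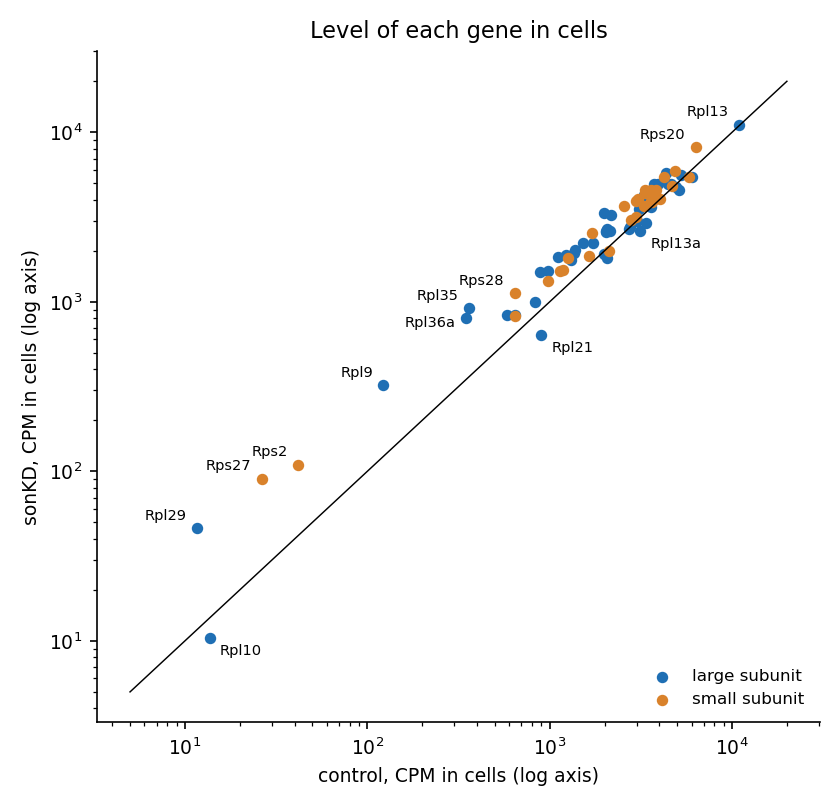
The level of each member in control cells against sonKD cells, in CPM on log axes, with the line of equal levels. Rpl29, Rps27, Rps2, Rpl9, Rpl35 and Rpl36a lie farthest above the line, and the 25th and 75th percentiles of the members' mean levels are 1517 and 3996 CPM.

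Below these 6 came small proteins of both subunits. Rps28, by the mRNA exit site of the small subunit, was at 642 CPM in control cells (634 to 650) and 1121 CPM in sonKD cells (1110 to 1133), a log2 ratio of 0.80. Rplp2, an acidic protein of the stalk that recruits translation factors, was at 885 and 1506 CPM, a log2 ratio of 0.77 (0.75 to 0.79). Rpl41 was at 1983 and 3350 CPM, a log2 ratio of 0.76 (0.74 to 0.77). Rpl22, a large-subunit protein that also binds RNA outside the ribosome, was at 1106 and 1834 CPM (0.73), and none of its annotated 3′ end was shared. The level of each of these in sonKD lay beyond the counting interval of control. Rpl39, at the exit tunnel, followed at 985 and 1522 CPM (0.63), then Rpl34 at a log2 ratio of 0.61 and Rpl37a at 0.59.

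At the other end, Rpl21 (chr5:146832890-146837032), a large-subunit protein, was at 899 CPM in control cells (890 to 908) and 635 CPM in sonKD cells (627 to 644). Its log2 ratio of -0.50 (-0.53 to -0.48) was the lowest of the family, and none of its annotated 3′ end was shared. Rpl10, an X-linked gene whose protein joins the large subunit late and contacts the peptidyl transferase centre, was at 13.7 CPM (12.6 to 14.8) and 10.4 CPM (9.31 to 11.6). Its log2 ratio was -0.39 (-0.59 to -0.20), on 559 and 333 UMIs, and with its identical copy Rpl10-ps3 it was -0.17 (-0.31 to -0.03). Rpl10 was the least abundant member by these counts. Rpl13a, known for a role in silencing translation of inflammatory mRNAs, was at 3134 and 2606 CPM, a log2 ratio of -0.27 (-0.28 to -0.25). Rpl12 and Rpl5 were next, then Rpl7, at 5093 and 4585 CPM, and Rpl8 at -0.15 each and Rpsa, which is also known as a laminin receptor, at -0.09. These ratios of Rpl21, Rpl10, Rpl13a, Rpl12, Rpl5, Rpl7, Rpl8 and Rpsa were negative under each alternative tried. That of Rpsa was barely below 0 with TMM factors, which add 0.0901 to its -0.0928.

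The most abundant member was Rpl13, at 10951 CPM in control cells and 11102 CPM in sonKD cells, a log2 ratio of 0.02 (0.01 to 0.03). Rps20 was at 6321 and 8165 CPM (0.37), Rpl8, near the peptidyl transferase centre, at 6048 and 5468 CPM, and Rpsa at 5841 and 5477 CPM. Rpl19 was at 5227 and 5590 CPM (0.10). By these counts the mean levels of the family spanned 917-fold between Rpl13 and Rpl10, and the level of Rpl10 is uncertain. Over the 76 genes the lowest levels went with the highest ratios, with a Spearman rho of -0.48 between mean CPM and ratio. Over the 33 members with less than 50% of the 3′ end shared it was -0.26.

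Members were next read by their place in the ribosome. Around the exit tunnel all 7 members listed were higher in sonKD, where 62 of all 76 members and 25.1% of all genes were. They ran from Rpl19 at 0.10 to Rpl35 at 1.35, with a median of 0.36, beside 0.35 for all members. Between these and Rpl39 lay Rpl31 at 1316 and 1771 CPM (0.43), Rpl17 at 2041 and 2628 CPM (0.36), Rpl26 at 3530 and 4256 CPM (0.27) and Rpl23a at 829 and 999 CPM (0.27). In the stalk and its base, Rplp2 was higher and Rplp1 was at 4476 and 4963 CPM (0.15), while Rplp0, their anchor, was at 4901 and 4736 CPM (-0.05) and Rpl12 at 3362 and 2912 CPM (-0.21). Rplp0 was above 0 with TMM factors (0.04) and with the total without mitochondrial and member genes (0.02). The partners of 5S rRNA, which also bind Mdm2 when ribosome assembly is disturbed, went opposite ways: Rpl11 was at 3077 and 3510 CPM (0.19; 0.18 to 0.20) and Rpl5 at 2074 and 1805 CPM (-0.20; -0.22 to -0.19). At the mRNA entry, Rps3 was at 2784 and 3057 CPM (0.13), far below the ratio of Rps2. Rps27a, which is made as a fusion with ubiquitin, was at 4879 and 5901 CPM (0.27).

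Rps6, which is phosphorylated downstream of mTOR, was at 2107 and 1982 CPM (-0.09), and at 0.00 with TMM factors. On the X chromosome Rpl36a and Rpl39 were higher, Rpl10 was lower and Rps4x was at 4052 and 4019 CPM (-0.01). The sign of Rps4x changed with the scaling, being 0.08 with TMM factors and 0.06 with the other total. Among the 18 members listed as mutated in Diamond-Blackfan anaemia, an inherited failure of red cell production, 17 were higher in sonKD and 14 had a log2 ratio of 0.25 or more, with Rpl5 as the exception and a median of 0.37. Over all 76 members, 62 were higher, 46 were at 0.25 or more and the median was 0.35.

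Ratios followed coding length. Across the 76 members, Spearman's rho between coding length and log2 ratio was -0.73, and across the 33 with less than 50% of the 3′ end shared it was -0.83. It was -0.73 over 46 large-subunit and -0.65 over 30 small-subunit genes. With the length of the 3′ untranslated region rho was -0.08 and with GC content -0.02, while exon number, which grows with coding length, gave -0.59. Over the 33 these were 0.12, -0.33 and -0.82, so there exon number ordered the ratios about as closely as coding length did. These are descriptions across genes of 1 pair of libraries, and the genes are not independent replicates. The 9 members of up to 300 coding bases, among them Rpl41, Rpl39 and Rps28, had a median log2 ratio of 0.59. The 15 members of 301 to 400 bases had 0.44, the 23 of 401 to 500 bases 0.35, the 16 of 501 to 700 bases 0.10 and the 13 of 701 to 1260 bases -0.04 (0.05 with TMM factors).

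Other genes shared the direction of this gradient at lower values. Among 7805 other coding genes at 10 CPM rho was -0.31, and in the same length ranges their medians were 0.16, 0.03, -0.02, -0.07 and -0.09 (with TMM factors 0.25, 0.12, 0.07, 0.02 and -0.00). The distance between the medians of members and other genes does not depend on the scaling. It was 0.43, 0.41 and 0.37 in the 3 ranges up to 500 coding bases, 0.17 in the next and 0.05 in the longest. In the same order, 43.5%, 26.5%, 8.61%, 5.63% and 3.33% of other genes were at 0.25 or more. Of members, 100%, 93.3%, 78.3%, 18.8% and 15.4% were. Mitochondrial ribosomal proteins, which are encoded in the nucleus and serve the organelle's own ribosome, had a rho of -0.30 and a median log2 ratio of -0.03 over 78 genes (0.06 with TMM factors). In the same length ranges their medians were 0.52 (3 genes), -0.01 (11 genes), 0.07 (13 genes), -0.14 (23 genes) and -0.06 (27 genes). TMM factors add 0.09 to each of these medians. Of these 78, 7 were at 0.25 or more and 10 at -0.25 or less, against 5.07% and 20.1% of all genes at 10 CPM. Rpl21 and Rpl12, of 483 and 498 coding bases, lay below other members of their length, and Rps2, of 882, lay above.

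**Figure D3:**
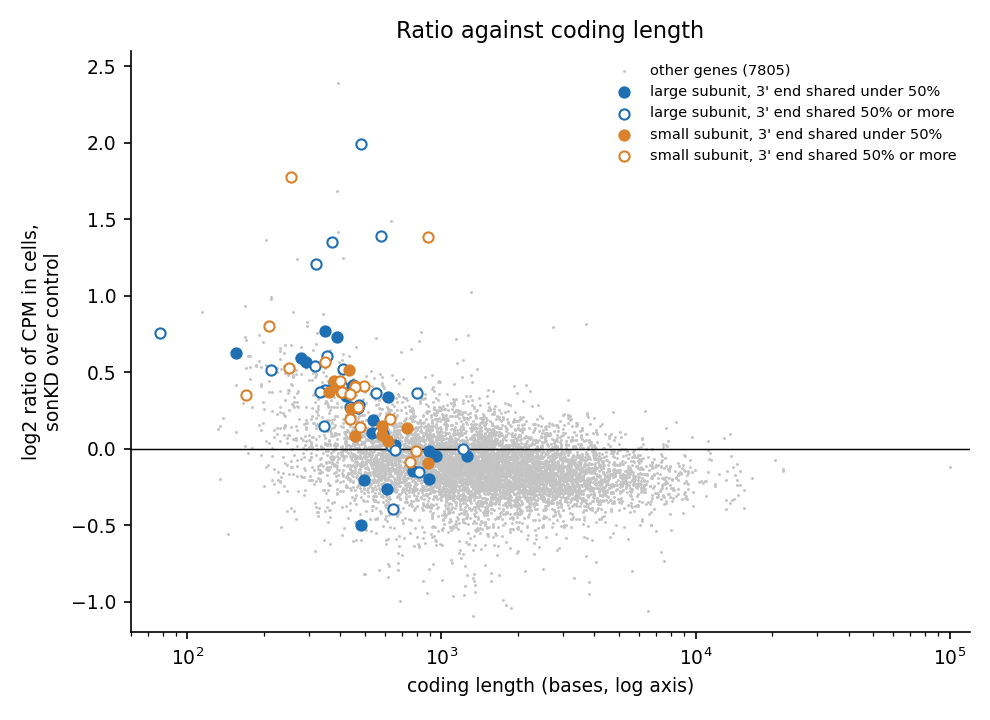
The log2 ratio of CPM in cells, sonKD over control, against coding length in bases on a log axis, for members (large circles; open where the 3′ end is shared to 50% or more) and 7805 other genes at 10 CPM (grey). Medians of members run from 0.59 at up to 300 bases to -0.04 above 700 bases (0.05 with TMM factors), and those of other genes from 0.16 to -0.09 (0.25 to -0.00 with TMM factors).

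Genes that belong with the family by function but not by symbol were read alongside it. Fau, whose small-subunit protein is made as a fusion, was at 0.40 and Rps3a1 at 0.08. Rack1, a signalling scaffold on the small subunit, was at -0.31, with nothing of its annotated 3′ end shared. Of the 6 paralogs at 10 CPM, 5 were higher, where 25.1% of all genes were. Rpl36al was at 0.48, Rps27l, a p53 target, at 0.42 and Rpl22l1 at 0.32, and only Rpl7l1 was lower, at -0.12.

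The other mRNAs known to carry a TOP tract lay nearer to the median gene than the members did. Of 19, 4 were higher in sonKD and 15 lower, where 25.1% of all genes at 10 CPM were higher. The median log2 ratio of the 19 was -0.08. With TMM factors 10 were higher and 9 lower, with a median of 0.01, where 43.4% of all genes were higher. The elongation factors Eef1a1, Eef1g and Eef2 were at 0.07, -0.23 and -0.18, the poly(A)-binding protein Pabpc1 at -0.25 and Tpt1 at -0.23. The 2 at 0.25 or more, where 5.07% of all genes were, were Gas5 at 0.63 and Snhg8 at 0.87. Both host small nucleolar RNAs and do not code for protein. Snhg1, another such host in the list, was at -0.04 (-0.10 to 0.03). The 19 nucleolar assembly factors had a median of -0.07, with 7 higher and 12 lower, beside the same 25.1% of all genes. With TMM factors the median was 0.02, with 12 higher and 7 lower, beside 43.4% of all genes. These factors ran from Bop1 at -0.44 to Gar1 at 0.63.

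In the droplets the family made up a larger part of the RNA than in cells, and the libraries differed there by nearly the same amount. Members took 32.2% of droplet UMIs in control and 37.0% in sonKD, a log2 ratio of 0.20. The large subunit took 18.7% and 20.9%, and the small subunit 13.6% and 16.0%. There 41 members had a log2 ratio of 0.25 or more, against 6.61% of the 5458 genes at 10 CPM in droplets, and 2 were at -0.25 or less, against 40.6%. TMM factors moved the median of all droplet genes by 0.22, from -0.19 to 0.03. The median member lay 0.48 above the median gene before and after this. These factors move every gene alike, so that distance could change only through genes that cross the filter. The shares of all genes did change: with TMM factors 20.9% of droplet genes were at 0.25 or more and 16.2% at -0.25 or less. Above 0 there were then 73 members, against 55% of droplet genes.

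Each member's ratio in droplets was close to its ratio in cells. Of the 76, 73 had the same sign in both, and the median distance was 0.04 on the log2 scale. Rpl29 was at 16.3 and 67.0 CPM in droplets (2.04), Rps27 at 42.8 and 157 CPM (1.87) and Rpl21 at 1685 and 1186 CPM (-0.51). Rpl14, Rpl13 and Rpl3, all between 0.00 and 0.03 in cells, were the 3 that changed sign. The largest distance, 0.23, was that of Rpl10, which had 207 and 188 UMIs in droplets. Its ratio there was -0.16, with an interval across 0 (-0.45 to 0.13). Summed with Rpl10-ps3 it was 0.03 in droplets (-0.14 to 0.20). Son, by contrast, was at -0.67 in cells and -1.47 in droplets.

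Within a library, 66 members in control were at least 0.5 higher in droplets than in cells on the log2 scale, against 9.3% of 5419 genes, and 64 members in sonKD, against 7.01%. The median member was at 0.72 in control and 0.67 in sonKD, and the median gene at -0.48 and -0.56. Rpl23a (1.17 and 1.10) and Rps26 (1.16 and 1.14) were among the highest in control and sonKD. Rpl4 (0.06 and 0.05) and Rps2 (0.08 and 0.06) were almost level, and Rpl10 was lower in droplets (-0.28 and -0.04). The order of the genes was nearly the same in the libraries, with a Spearman rho of 0.96 over 76 members, which share their total and depth in each library. Longer members were less raised, with a rho of -0.63 between coding length and this measure in control and -0.65 in sonKD. Other short genes were raised too. Up to 300 coding bases their medians were 0.53 in control and 0.45 in sonKD, beside 0.91 and 0.90 for members. At 301 to 400 bases other genes had 0.49 and 0.38 and members 0.83 and 0.84. From 701 bases to 1300, other genes had -0.35 and -0.42 and members 0.51 and 0.43. Mitochondrial ribosomal proteins had medians of 0.35 and 0.22.

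**Figure D4:**
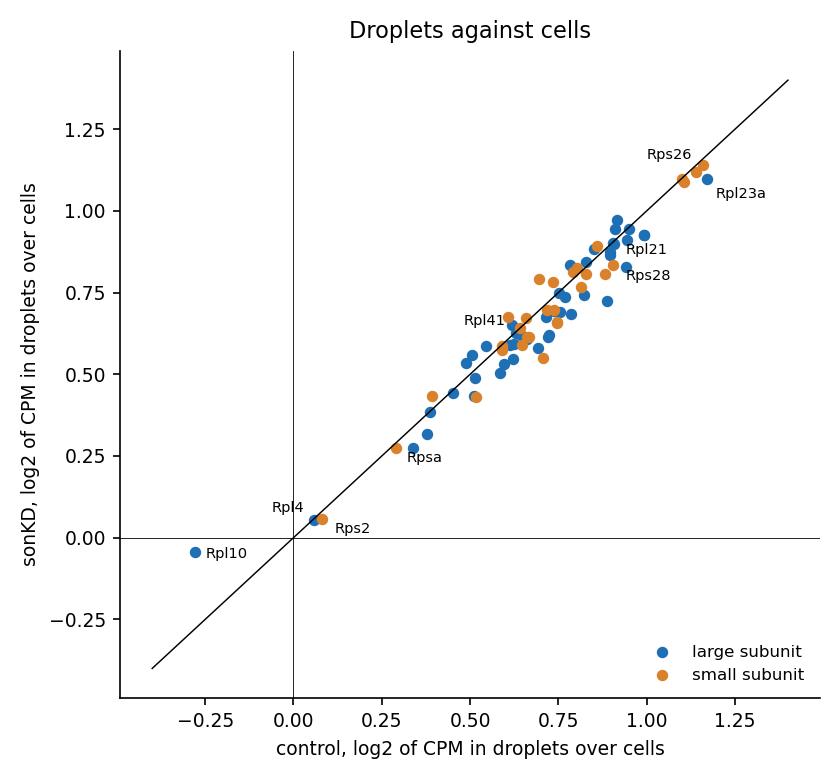
The log2 ratio of CPM in droplets over cells for each member, control on the horizontal and sonKD on the vertical axis, with the line of equal values. Nearly all members lie between 0.25 and 1.2 in both libraries, with Rpl4, Rps2 and Rpl10 near or below 0.

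Cells also hold free RNA, and its part in the cell values was not tested. The share of members was therefore read over all depths. In barcodes of 1000 to 2500 UMIs, between droplets and cells, it was 12% in control and 13.2% in sonKD, where mitochondrial genes took 16.7% and 20.4% of UMIs. Among barcodes with at most 10% mitochondrial UMIs, it was 20.6% and 25.0% at 5000 to 10000 UMIs and 18.9% and 23.3% at 10000 to 20000 UMIs. At 2500 to 5000 UMIs it was 21.0% in 514 control barcodes and 20.5% in 172 sonKD barcodes, so the difference between libraries was not seen at that depth. Over all barcodes of that depth the order was reversed, with 15.9% in 1125 control and 13.7% in 1149 sonKD barcodes. Mitochondrial genes took 10.3% and 16.5% of the UMIs there. Above 20000 UMIs the share of members was 20.3% in 49 control and 21.9% in 114 sonKD barcodes. Most cells of control lay at 5000 to 10000 UMIs and most of sonKD at 10000 to 20000 UMIs, and the part of cell depth in the difference was not tested beyond these ranges.

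**Figure D5:**
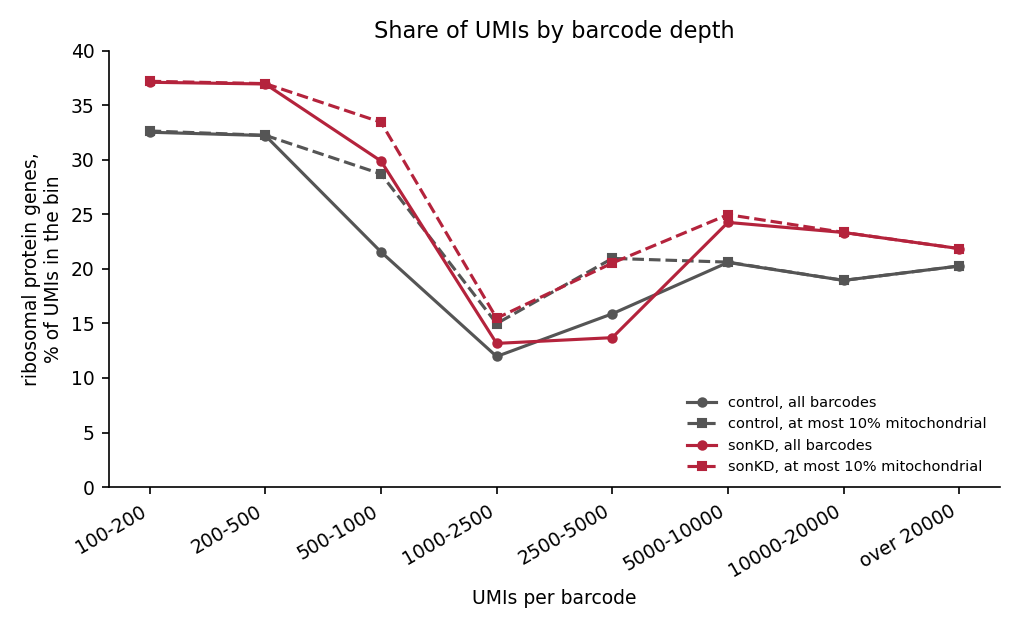
The share of UMIs from the 76 members, in percent, by UMIs per barcode, for control (grey) and sonKD (red), over all barcodes (solid) and those with at most 10% mitochondrial UMIs (dashed). Each library has its highest share in droplets (about 32.5% and 37.1% at 100 to 200 UMIs) and its lowest at 1000 to 2500 UMIs. At 2500 to 5000 UMIs the libraries are level on the dashed lines, while on the solid lines sonKD lies below control.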

How the data were processed

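The authors deposited whole-number UMI counts per gene and barcode for all barcodes, 1 matrix per library; Cell Ranger 7.1.0 and mm10 are named per the submitters' processing notes, while the annotation release and intron setting are not given in the sources used here. The labels disagree on the sequencer model. Members and gene lists were chosen with earlier results of these data known. From the deposited counts, barcodes were split by depth and mitochondrial share into cells and droplets, counts were summed per library and divided by the total to give CPM, and log2 ratios of sonKD over control were taken, with counts under 3 set to 3. Comparisons used the genes whose 2 libraries averaged 10 CPM or more, and a log2 ratio of 0.25 either way was the fold used as a call, since no test was possible. Intervals at 95% are Poisson for levels, Clopper-Pearson for shares and conditional binomial for ratios. PCR and cell differences are not in them. Doublets were not called. Single values of 1 member and of 1 related gene are not reported here, though sums and counts hold them. Annotation was GENCODE M21, with 1 representative transcript per gene, and 3′ sharing was the share of 31-base words in the last 300 bases found in other genes. The rule for levels beside ratios was the 8 highest and 8 lowest ratios, the 5 highest and 5 lowest levels and the role groups, of which the anaemia genes are given as counts. Alternatives were TMM factors (edgeR 4.0.16 in R 4.3.3), another total, other limits on depth, mitochondrial share and level, thinning each cell to 2500 UMIs, and mean CPM per cell. Scripts ran in Python with numpy and were tested on simulated data.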

Additional observations from a re-analysis of the deposited data

Results flagged for a closer look

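Barcodes at cell depth with over 10% mitochondrial UMIs were not among the cells; the alternative of up to 25% takes in most of them, and the share over all barcodes by depth holds them. There were 625 in control and 1056 in sonKD, and members took 10.6% and 12.8% of their UMIs, a log2 ratio of 0.28. This was looked at again because the share in sonKD was above that in control in data left out of the cells. The median member was at 0.38 in them, and the median of 8716 genes at 10 CPM there was -0.15. Within them Rpl35 was at a log2 ratio of 1.43, Rps27 at 1.37, Rpl36a at 1.3 and Rpl29, on 20 and 78 UMIs, at 1.08 (0.36 to 1.87). Rps2 and Rpl9, above 1 in cells, were at 0.94 and 0.93. Rpl10 and Rpl21 were again below 0, at -0.56 and -0.35. So were Rpl13a (-0.30), Rpl12 (-0.20), Rpl7 (-0.13), Rpsa (-0.11) and Rpl8 (-0.08), while Rpl5 was at 0.01 (-0.06 to 0.08).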

How the results depend on the processing

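No paired analysis was possible because each group has 1 library and the libraries share only the number 1. Leaving out a replicate was not possible either. Of 97 values of Son and of the members' shares, sums, medians and counts under the alternatives, 53 stayed within the counting interval or within 1.5 times for counts, 44 lay beyond. Medians of other gene lists that changed sign with the scaling are given beside those lists. The large- and small-subunit log2 ratios were 0.28 and 0.35 with TMM factors, 0.26 and 0.33 with the other total, 0.20 and 0.26 from 5000 UMIs, 0.19 and 0.25 at up to 5% mitochondrial UMIs, 0.16 and 0.22 at up to 25%, 0.18 and 0.24 after thinning, 0.18 and 0.24 as a mean over cells, and 0.15 and 0.22 without members whose 3′ end is shared, an alternative chosen after seeing the data. The median member in cells was 0.44 with TMM factors, 0.43 with the other total, 0.32 at up to 25% mitochondrial UMIs and 0.19 without shared members. In droplets it was 0.51 with TMM factors, 0.39 with the other total and 0.18 without shared members, and the 2 members at -0.25 or less became 1 with either scaling. Son was at -0.58 with TMM factors, -0.60 with the other total and -0.59 after thinning.

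The share in control and sonKD cells was 20.1% and 23.5% from 5000 UMIs, 20.4% and 23.6% at up to 5% mitochondrial UMIs, 19.7% and 22.5% at up to 25%, 20.4% and 23.5% after thinning, 20.2% and 23.5% without the deepest barcodes, and 20.4% and 23.6% as a mean over cells. In droplets it was 32.5% and 37.1% at 100 to 200 UMIs, and 32.3% and 37.0% at up to 10% mitochondrial UMIs. Of 608 values of single members, 591 kept their sign. Those that did not were of Rpl6, Rpl10a and Rpl3, whose interval held 0, and 9 of members whose interval did not: Rps6 (0.0021), Rplp0 (0.041), Rpl4 (0.046) and Rps4x (0.078) with TMM factors, Rplp0 (0.022), Rpl4 (0.027) and Rps4x (0.060) with the other total, and Rpl13 (-0.013) and Rpl14 (-0.0023) at up to 25% mitochondrial UMIs. Both scalings divide by another total, which moves every ratio alike; the cause of the other moves was not tested. At these depths the counting interval of most members is narrow, and the lack of a second library per group limits what can be said more than depth does.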
